A study of Mus musculus with 4 samples.

Results

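The CD28 family and the coinhibitory receptors of T cells were represented by 10 genes, Icos, Cd28, Ctla4, Pdcd1, Btla, Lag3, Havcr2, Tigit, Cd96 and Cd226, each found by its symbol as 1 of the 24087 genes in the expression table. All 10 were expressed highly enough to be tested. The table held RNA-seq of regulatory T (Treg) cells, the Foxp3+ CD4+ T cells that restrain other T cells, sorted from the spleen of C57BL/6 mice as CD3+CD4+YFP+ cells. KO mice were Foxp3Cre-YFPSetd2f/f and CTRL mice were their Foxp3Cre-YFPSetd2f/+ littermates, so that CTRL mice carried 1 floxed Setd2 allele as well as the Cre. Cre was driven by Foxp3, which limits the deletion to cells that have expressed Foxp3, and mice were 6 to 12 weeks old. Each genotype had 2 libraries, called CTRL 1, CTRL 2, KO 1 and KO 2, and each library was pooled from 2 mice. Where values of single libraries are given, replicate 1 comes before replicate 2, and CTRL before KO. Values are FPKM, fragments scaled by gene length and library size, so levels of different genes can be set side by side. Such comparisons between genes rest on the authors' gene lengths, which are not given in the sources used here.

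A T cell reads its antigen receptor together with a second signal from these receptors. CD28 and ICOS, which bind CD80 or CD86 and ICOSL, recruit phosphoinositide 3-kinase (PI3K) through a tyrosine motif in their tails. CTLA-4 competes with CD28 for the same ligands and is central to suppression by Treg cells. PD-1 and BTLA carry inhibitory tyrosine motifs that recruit phosphatases. TIGIT, CD96 and CD226 share the ligand CD155 (gene Pvr), with CD226 activating and TIGIT inhibitory, while LAG-3 and TIM-3 (gene Havcr2) are further inhibitory receptors of activated T cells. Setd2 encodes the methyltransferase that places trimethylation on lysine 36 of histone H3 in gene bodies.

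Coding bases of tail motifs are shown for Icos, Cd28, Ctla4, Pdcd1, Btla, Tigit and Cd96, and not for Cd226, Lag3 or Havcr2. They were read from GENCODE vM21 transcripts on GRCm38, 5′ to 3′ on the coding strand, with the codons of the motif in capitals. The first 3 are the motifs of Icos, Cd28 and Ctla4 around a tyrosine and a methionine, which lie at chr1:60995551-60995580 in exon 4 of 5, chr1:60769684-60769713 in exon 4 of 4 and chr1:60914637-60914666 in exon 4 of 4, all on the plus strand.
Icos: aatagtgaaTACATGTTCATGgcggcagtc
Cd28: caaagtgacTACATGAACATGactccccgg
Ctla4: acaggggtcTATGTGAAAATGcccccaaca
Icos and Cd28 share the opening codons TACATG and the closing ATG, and the CTLA-4 motif, which also binds a clathrin adaptor, opens with TATGTG and closes with the same ATG. The next 6 are the inhibitory motifs of Pdcd1, Btla, Tigit and Cd96. Pdcd1 (minus strand, exon 5 of 5) and Btla (plus strand, exon 6 of 6) each hold an inhibitory motif (ITIM) followed by a switch motif (ITSM), at chr1:94039479-94039514 and chr1:94039410-94039445 for Pdcd1 and at chr16:45250481-45250516 and chr16:45250556-45250591 for Btla. Tigit (chr16:43649025-43649060, minus strand, exon 4 of 4) and Cd96 (chr16:46035915-46035950, minus strand, exon 15 of 15) are shown with 1 ITIM each.
Pdcd1 ITIM: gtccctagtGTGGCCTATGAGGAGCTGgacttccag
Pdcd1 ITSM: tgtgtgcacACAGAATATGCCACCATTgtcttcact
Btla ITIM: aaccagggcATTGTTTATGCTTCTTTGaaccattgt
Btla ITSM: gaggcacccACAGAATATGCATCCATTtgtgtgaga
Tigit ITIM: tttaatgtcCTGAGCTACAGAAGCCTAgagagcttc
Cd96 ITIM: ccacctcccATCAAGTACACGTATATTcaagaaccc
The switch motifs of Pdcd1 and Btla both open with the bases ACAGAATATGC. Of the receptors with an inhibitory motif shown here, Btla and Cd96 were lower in KO Treg cells and Tigit lay above CTRL, as described next.

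KO was compared with CTRL by limma on log2(FPKM + 1) over the 11399 genes that reached 1 FPKM in 2 or more libraries, and an adjusted p under 0.05 was the threshold. Of the 10 receptors 3 passed, which is 30%, beside 9.75% of all genes tested. Icos was higher in KO (1 of 10, beside 5.10% of all genes), and Btla and Cd96 were lower (2 of 10, beside 4.65%). At an unadjusted p under 0.05 there were 5 receptors, Icos, Tigit and Havcr2 higher and Btla and Cd96 lower, which is 50% beside 34.7% of all genes. For the same 5 receptors both KO libraries lay on one side of both CTRL libraries, again 50%, and 64.5% of all genes tested were separated in this way. The mean was higher in KO for 8 of the 10, with a median log2 fold change of 0.14 over the receptors and -0.02 over all genes tested.

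**Figure D1:**
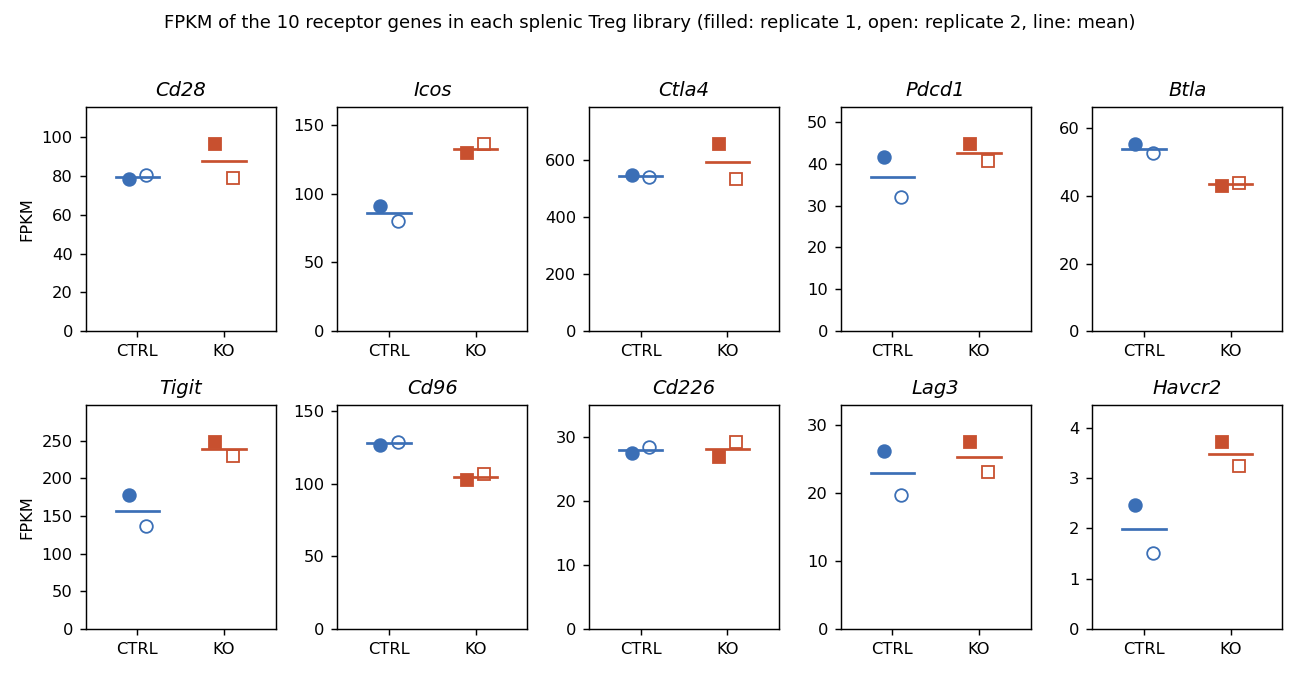
FPKM of each receptor gene in the 2 CTRL libraries (blue circles) and the 2 KO libraries (red squares), with filled symbols for replicate 1, open symbols for replicate 2 and a line at the group mean. Icos, Tigit and Havcr2 lay higher in both KO libraries, Btla and Cd96 lay lower, and the groups overlapped for the other 5.

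Icos, the inducible costimulator, measured 91.0 and 80.3 FPKM in the CTRL libraries, against 129.6 and 135.9 FPKM in the KO libraries. Both KO libraries were above both CTRL libraries, and the gap between the groups was larger than the spread within either. The mean rose from 85.6 ± 7.60 to 132.8 ± 4.47 FPKM (SD, n = 2 each), which is 1.55-fold, with a log2 fold change of 0.63 (SE 0.08, 95% interval 0.43 to 0.83, adjusted p = 0.0346). At least 9047 reads lay behind each of these values. A larger increase was found for 338 genes, or 2.97% of those tested. Icos (ENSMUSG00000026009) lies on the plus strand at 60977927 to 61000320 of chromosome 1 and overlaps a transcript of unconfirmed status on the same strand, Gm37039, whose reads could not be told from its own. The study singled out Icos partly from these libraries, so this difference is no independent evidence of its direction. In pooled cells, a larger share of cells that express a gene and more RNA per cell cannot be told apart. This holds for every receptor described here.

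Cd28, the founding costimulator, measured 78.6 and 80.4 FPKM in the CTRL libraries, against 96.4 and 79.2 FPKM in the KO libraries. Only KO 1 was high, and KO 2 fell between the CTRL values. The log2 fold change was 0.13 (95% interval -0.13 to 0.40, adjusted p = 0.398), and it was -0.01 without KO 1. Icos and Cd28 thus stood at overlapping levels in CTRL, with 1.16 and 0.998 Icos per Cd28 in CTRL 1 and CTRL 2, and Icos was the higher of the pair in KO, with 1.34 and 1.72 in KO 1 and KO 2. On the log2 scale this ratio was higher by 0.50 in KO, and the exact permutation test over 4 libraries gave p = 0.333, the smallest it allows.

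Ctla4 was the most abundant of the 10 genes, at 546.3 and 541.6 FPKM in CTRL, against 655.9 and 533.8 FPKM in KO. It ranked 113 of the 11399 genes by mean FPKM and made up 43.6% to 49.1% of the summed FPKM of the 10 receptors in each library. KO 1 was high, as for Cd28, but KO 2 was below both CTRL libraries. The log2 fold change was 0.12 (95% interval -0.15 to 0.40, adjusted p = 0.470), and it was -0.03 without KO 1. Within each library Ctla4 kept a close ratio to Cd28, at 6.95, 6.73, 6.80 and 6.74 in CTRL 1, CTRL 2, KO 1 and KO 2. A ribosomal protein pseudogene, Rpl18-ps1, overlaps Ctla4 on the same strand.

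Pdcd1, which encodes PD-1, measured 41.7 and 32.1 FPKM in the CTRL libraries, against 44.7 and 40.5 FPKM in the KO libraries. CTRL 1 fell between the KO values, so the groups overlapped. The log2 fold change was 0.21 (95% interval -0.13 to 0.55, adjusted p = 0.315), an interval that includes no change and an increase close to that of Icos.

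Btla, an inhibitory receptor for the TNF receptor family member HVEM (gene Tnfrsf14), measured 55.4 and 52.7 FPKM in the CTRL libraries, against 43.1 and 43.9 FPKM in the KO libraries. The libraries of each genotype were close to each other and the groups were apart. Btla fell by 19.5%, with a log2 fold change of -0.31 (SE 0.06, 95% interval -0.45 to -0.16, adjusted p = 0.0423). There were 1.64 and 1.52 Icos per Btla in CTRL 1 and CTRL 2 and 3.01 and 3.10 in KO 1 and KO 2, a pair chosen after the values were seen. Its own ligand Tnfrsf14 was at 27.0 and 25.7 FPKM in CTRL, against 25.5 and 25.9 FPKM in KO.

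**Figure D2:**
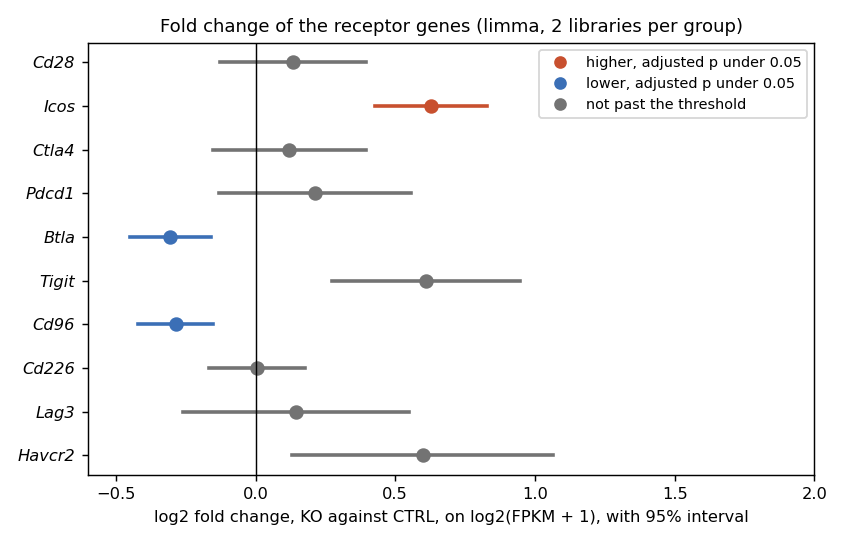
Log2 fold change of each receptor gene in KO against CTRL (points) with its 95% interval (lines), from limma on log2(FPKM + 1) with 2 libraries per group. Icos is in red as higher and Btla and Cd96 in blue as lower at an adjusted p under 0.05, and the intervals of Tigit and Havcr2, at an adjusted p of 0.0513 and 0.0914, also lie above 0.

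Among the nectin-binding receptors Cd96 was lower in KO, Tigit lay higher but just missed the threshold, and Cd226 overlapped between the groups. Tigit measured 177.3 and 137.1 FPKM in the CTRL libraries, against 248.2 and 229.3 FPKM in the KO libraries. Both KO values were above both CTRL values, and the CTRL libraries were farther apart than the KO libraries. The mean was 1.52-fold that of CTRL, with a log2 fold change of 0.61 (SE 0.13, 95% interval 0.28 to 0.95), and the adjusted p was 0.0513, just short of the threshold. Tigit passed the threshold in 5 of 10 other ways of scaling, filtering or fitting the values, with adjusted p from 0.0117 to 0.12.

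Cd96, which binds the same ligand as Tigit, measured 127.0 and 129.0 FPKM in the CTRL libraries, against 102.8 and 106.8 FPKM in the KO libraries. The groups were well separated, and Cd96 fell by 18.1%, with a log2 fold change of -0.29 (SE 0.05, 95% interval -0.42 to -0.15, adjusted p = 0.0422). Cd226, the activating receptor of this group, measured 27.5 and 28.4 FPKM in the CTRL libraries, against 26.9 and 29.2 FPKM in the KO libraries, with a log2 fold change of 0.01 and a 95% interval of -0.17 to 0.18 (adjusted p = 0.959).

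Tigit and Cd96 lie on chromosome 16, as does Btla, at 43648867 to 43664146 for Tigit and 46035657 to 46120251 for Cd96, both on the minus strand, and at 45224315 to 45257670 on the plus strand for Btla. Set against each other within a library, there were 1.40 and 1.06 Tigit per Cd96 in CTRL 1 and CTRL 2 and 2.41 and 2.15 in KO 1 and KO 2, a pair chosen after the values were seen. Tigit per Cd226 was 6.45 and 4.83 in CTRL 1 and CTRL 2 and 9.22 and 7.84 in KO 1 and KO 2. Both ratios were higher in each KO library than in either CTRL library, by 0.90 and 0.61 on the log2 scale, with p = 0.333 in the exact permutation test, the smallest that 2 libraries against 2 allow.

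**Figure D3:**
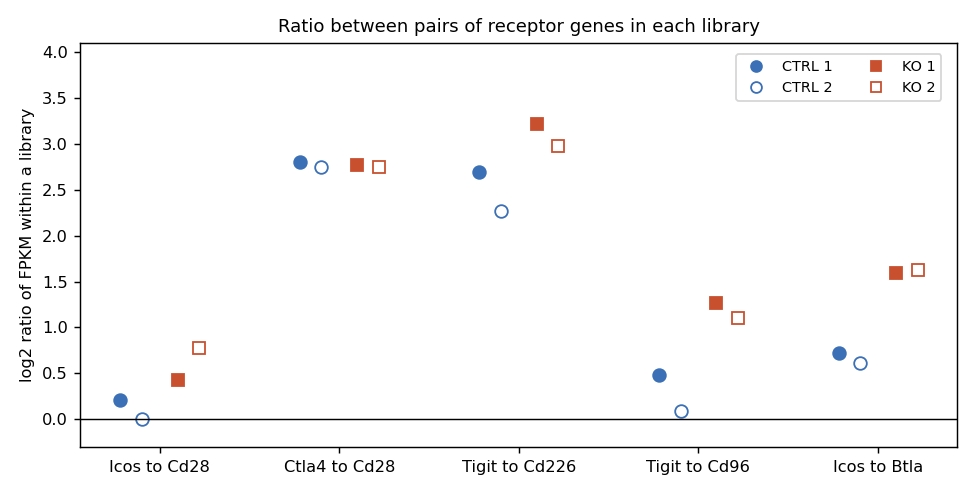
Log2 ratio of FPKM between pairs of receptor genes within each library, in CTRL (blue circles) and KO (red squares), with filled symbols for replicate 1 and open symbols for replicate 2. The ratio of Ctla4 to Cd28 stayed between 2.75 and 2.80 in all 4 libraries, while the other 4 ratios were higher in both KO libraries; the pairs Tigit to Cd96 and Icos to Btla were chosen after the values were seen.

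Lag3, whose product binds MHC class II, measured 26.2 and 19.6 FPKM in the CTRL libraries, against 27.5 and 23.0 FPKM in the KO libraries. The groups overlapped, with a log2 fold change of 0.14 (95% interval -0.26 to 0.55, adjusted p = 0.560), and it was -0.06 without CTRL 2. Havcr2, which encodes TIM-3, was the least abundant of the 10, at 2.47 and 1.52 FPKM in CTRL, against 3.72 and 3.24 FPKM in KO. Between 143 and 358 reads at least lay behind these values. Both KO libraries were higher, and the mean was 1.75-fold that of CTRL, but the interval was wide (log2 fold change 0.60, 95% interval 0.13 to 1.07, adjusted p = 0.0914). TIM-3 is also made by myeloid cells. Of the 10 markers of myeloid and dendritic cells 8 were expressed highly enough to be tested and none passed. Their summed FPKM was 211.0 and 128.7 in CTRL 1 and CTRL 2 and 273.9 and 103.5 in KO 1 and KO 2, higher in the replicate 1 library of both genotypes, and Lyz2, the lysozyme of macrophages, led them at 113.6, 71.9, 153.1 and 60.002 FPKM. Among the 10, S100a8 was at 0 in CTRL 2, and no other was at 0 in any library. The part of myeloid cells in the values of Havcr2 was not tested.

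In CTRL the receptors ran, by mean FPKM, from Ctla4 through Tigit, Cd96, Icos, Cd28, Btla, Pdcd1, Cd226 and Lag3 to Havcr2. Icos and Cd28 were the only neighbours in that order whose ranges overlapped. In KO the order differed in 1 place, since Icos stood above Cd96, and the ranges of Btla and Pdcd1 and of Cd226 and Lag3 overlapped. The summed FPKM of the 10 receptors was 1173 and 1103 in CTRL 1 and CTRL 2 and 1379 and 1225 in KO 1 and KO 2.

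Icos, Ctla4 and Cd28 lie within 283.5 kb of chromosome 1, all on the plus strand, with 113.6 kb between Cd28 and Ctla4 and 62.1 kb between Ctla4 and Icos. Cd28 spans 60716800 to 60773359 and Ctla4 spans 60887000 to 60915832. Pdcd1 is on the same chromosome but far away, at 94038305 to 94052553 on the minus strand. Of the 3 neighbours only Icos passed the threshold. On the Cd28 side the nearest protein-coding genes were Raph1, an actin regulator at 2.204, 2.280, 1.42 and 1.77 FPKM in CTRL 1, CTRL 2, KO 1 and KO 2 (log2 fold change -0.32, adjusted p = 0.135), and Abi2 (-0.08, adjusted p = 0.538). On the Icos side Pard3b and Nrp2 were under 1 FPKM in every library and were not tested. Lag3 is on chromosome 6 (124904361 to 124911705, minus strand), Havcr2 on chromosome 11 (46454935 to 46481255, plus strand) and Cd226 on chromosome 18 (89176967 to 89272229, plus strand). Coordinates are those of GRCm38.

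**Figure D4:**
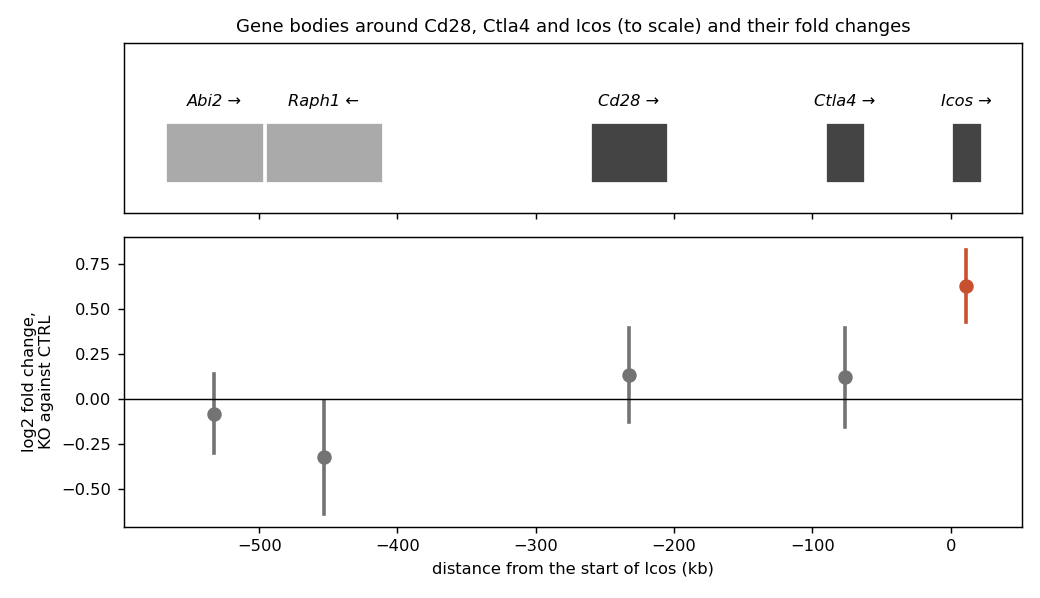
Gene bodies of Cd28, Ctla4 and Icos (dark) and of the 2 nearest protein-coding genes on the Cd28 side (light), by distance in kb from the start of Icos, with arrows for the strand, above their log2 fold change in KO against CTRL and its 95% interval. Icos (red) lies above 0, the intervals of Cd28, Ctla4 and Abi2 include 0, and Raph1 reaches from -0.64 to -0.01 with an adjusted p of 0.135.

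The molecules these receptors meet were also read from the same cells. Of the 15 genes for ligands 11 were tested and 1 passed, higher in KO, which is 9.09% beside 5.10% of all genes. It was Lgals3, a galectin that binds LAG-3, at 21.9 and 19.2 FPKM in CTRL, against 26.8 and 29.6 FPKM in KO (a log2 fold change of 0.44 with an adjusted p of 0.0490). The most abundant was Lgals9, a galectin ligand of TIM-3, at 97.4, 111.2, 110.3 and 127.0 FPKM in CTRL 1, CTRL 2, KO 1 and KO 2. Those named next were picked for the receptor they bind, after their values were seen. Icosl, the ligand of ICOS, was at 4.45 and 4.29 FPKM in CTRL, against 5.91 and 5.88 FPKM in KO (a log2 fold change of 0.36 with an adjusted p of 0.0549), and the groups did not overlap. Cd86, a ligand of CD28 and CTLA-4, was at 14.0 and 12.7 FPKM in CTRL, against 12.3 and 9.84 FPKM in KO (-0.25, adjusted p = 0.208). Pvr, the shared ligand of TIGIT, CD96 and CD226, was at 18.9 and 19.98 FPKM in CTRL, against 18.4 and 18.2 FPKM in KO (-0.08, adjusted p = 0.422). Several of these ligands are also made by myeloid cells, whose summed markers are given above, and their part in these values was not tested. The median log2 fold change of the 11 ligands was 0.05, and -0.02 without KO 2.

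Of 8 other coinhibitory receptors tested, 1 passed, lower in KO, which is 12.5% beside 4.65% of all genes. Cd200r1, the receptor for CD200, fell from 20.3 and 18.4 FPKM in CTRL to 12.7 and 11.98 FPKM in KO (a log2 fold change of -0.61 with an adjusted p of 0.0346). Cd5, a dampener of antigen receptor signals, was the most abundant, at 305.9, 339.3, 312.3 and 324.0 FPKM in CTRL 1, CTRL 2, KO 1 and KO 2. Outside the naming rule and after its values were seen, Lilrb4a, an inhibitory immunoglobulin-like receptor with a close paralog, had the largest log2 fold change of this list. It measured 57.0 and 33.6 FPKM in the CTRL libraries, against 110.4 and 88.9 FPKM in the KO libraries (1.16, adjusted p = 0.0544). The median of the 8 was -0.09, and 0.13 when only genes with a mean FPKM above 5 were kept. By limma-voom on recovered reads, described below, 2 of the 8 were called higher and 1 lower. Over all 11398 genes tested that way, 867 were higher and 1024 lower. Pvrig and Tmigd2 were not analysed here.

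Downstream of CD28 and ICOS, 2 of 19 signalling genes passed, 1 higher (5.26% beside 5.10% of all genes) and 1 lower (5.26% beside 4.65%). Pik3ip1, which encodes an inhibitor of PI3K, fell from 26.6 and 25.7 FPKM in CTRL to 17.2 and 16.3 FPKM in KO (a log2 fold change of -0.61 with an adjusted p of 0.0306). Map3k8, a kinase upstream of ERK, rose from 14.5 and 15.1 FPKM in CTRL to 18.3 and 18.7 FPKM in KO (0.31, adjusted p = 0.0487). Lck, the most abundant, was at 342.4, 354.6, 366.8 and 364.4 FPKM. The median of the 19 was -0.01, and 0.01 with median-ratio scaling. Of 10 phosphatases and adaptors of the tails, 1 passed, higher in KO, which is 10.0% beside 5.10% of all genes. It was the T cell adaptor Sh2d2a, higher by 0.35 on the log2 scale (72.8 and 73.2 FPKM in CTRL, 94.7 and 91.4 FPKM in KO). Fyn, a kinase of the Src family, was the most abundant of them, with a log2 fold change of 0.22 (adjusted p = 0.0577), and the median of the 10 was 0.10.

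Among 14 genes of receptor trafficking, 2 passed, 1 higher (7.14% beside 5.10% of all genes) and 1 lower (7.14% beside 4.65%). Trat1, whose product carries CTLA-4 towards the surface, fell by 0.43 on the log2 scale (69.6 and 64.7 FPKM in CTRL, 47.9 and 51.0 FPKM in KO). Ap2m1, the clathrin adaptor subunit that takes CTLA-4 back into the cell, rose by 0.33 (84.5 and 82.5 FPKM in CTRL, 103.7 and 106.4 FPKM in KO). Arf1, a small GTPase of vesicle budding, was the most abundant, with a log2 fold change of 0.11, and the median of the 14 was 0.12. Of 5 regulators of the receptors' messenger RNA, 2 fell, or 40.0% beside 4.65% of all genes. They were Rc3h2, whose product roquin-2 represses Icos mRNA, at 9.52 and 8.74 FPKM in CTRL, against 5.86 and 6.42 FPKM in KO, and its cofactor Nufip2, at 21.1 and 18.5 FPKM in CTRL, against 14.5 and 14.6 FPKM in KO. Their log2 fold changes were -0.51 and -0.42, with adjusted p of 0.0401 and 0.0461. Zc3h12a (regnase-1), the most abundant of the 5, was at 68.5, 84.0, 129.6 and 87.7 FPKM in CTRL 1, CTRL 2, KO 1 and KO 2, with KO 1 standing apart (0.49, adjusted p = 0.165). The median of the 5 was -0.11. Rc3h1, named after its values were seen, overlapped between the groups, at 8.63 and 9.47 FPKM in CTRL, against 8.74 and 7.93 FPKM in KO. The part of these regulators in the values of Icos was not tested. Pik3ip1, Trat1, Rc3h1, Rc3h2 and Nufip2 overlap other annotated genes, so their reads may be shared. Among the genes named below, this also holds for Tnfrsf9, Bcl2, Cxcr5, Setd2 and others.

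ICOS and TIGIT are known to be high on effector Treg cells, and genes of that state were read beside the receptors. Of 15 effector Treg genes 6 rose, or 40.0% beside 5.10% of all genes, and none fell. They were Gzmb, the cytotoxic protease granzyme B (log2 fold change 1.34), the cytokine Il10 (0.84), the transcription factors Irf4 (0.83) and Batf (0.50), and the costimulatory receptors Tnfrsf9 (0.38) and Tnfrsf4 (0.31), with Tnfrsf4 the most abundant. Their adjusted p ran from 0.0306 to 0.0402, and the median of the 15 was 0.31. Below CTRL in both KO libraries, but short of the threshold, were Ccr6 (-0.41), Itgae (-0.22) and Cd44 (-0.18), named after their values were seen, with adjusted p of 0.0634, 0.0793 and 0.126. By limma-voom on recovered reads 7 genes of the list were called higher and 1 lower, beside 867 higher and 1024 lower of the 11398 genes tested that way. Of 10 genes of resting T cells 3 fell, or 30.0% beside 4.65% of all genes, and none rose. Among them were Bcl2, which protects from cell death (-0.77), and the cytokine receptor Il7r (-0.35). Klf2, a factor of resting T cells, was the most abundant of the 10, with a log2 fold change of -0.15, and their median was -0.22. These counts are descriptions, since the lists were drawn up with earlier results of these libraries known. The part that a different mix of resting and effector Treg cells has in the values of Icos, Tigit, Btla and Cd96 was not tested.

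**Figure D5:**
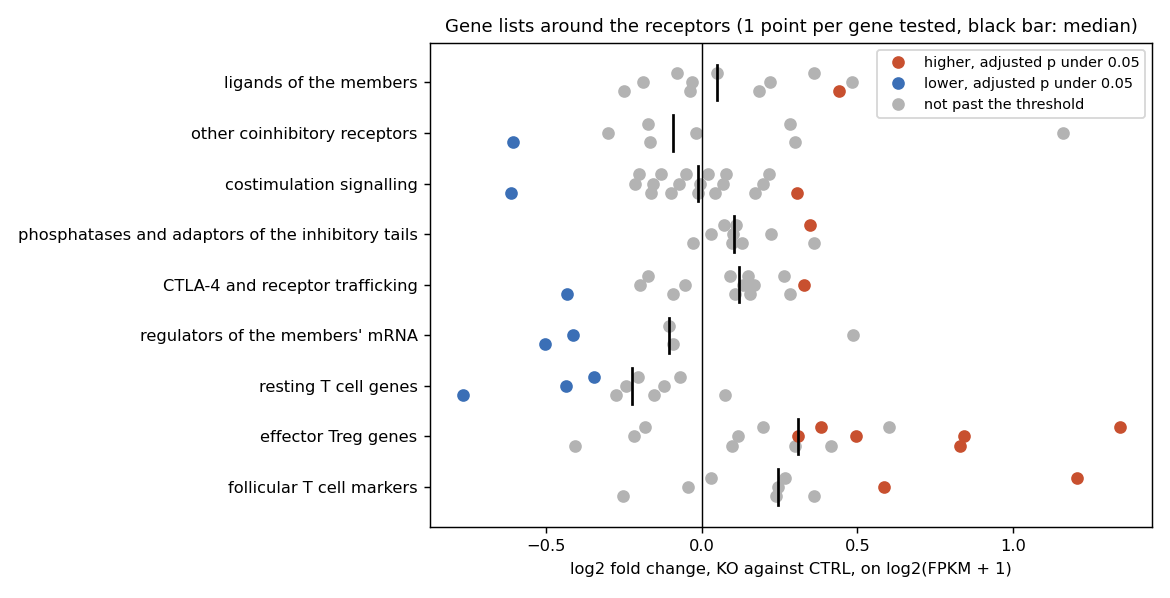
Log2 fold change in KO against CTRL of each tested gene (points) of 9 lists around the receptors, with genes past an adjusted p of 0.05 in red (higher) or blue (lower) and a black bar at the list median. The effector Treg genes have 6 red points and no blue ones, the resting T cell genes have 3 blue points and no red ones, and the costimulation signalling genes lie around 0 with 1 point of each colour.

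ICOS, PD-1, BTLA and TIGIT are also high on follicular T cells. Of 9 follicular markers 2 passed, both higher in KO, or 22.2% beside 5.10% of all genes. Cxcr5, the follicular homing receptor, rose from 21.3 and 18.6 FPKM in CTRL to 30.3 and 30.4 FPKM in KO (a log2 fold change of 0.59), and Tox2, a nuclear factor of follicular helper cells, rose from 19.5 and 20.3 to 53.3 and 41.9 FPKM (1.21). Bcl6, the defining factor of that lineage, picked out after its values were seen, was at 9.86, 9.47, 9.35 and 9.31 FPKM in CTRL 1, CTRL 2, KO 1 and KO 2. Sh2d1a, the adaptor SAP, was the most abundant of the 9, and its log2 fold change was 0.36 (adjusted p = 0.0627). The median of the 9 was 0.24, and -0.02 without KO 1. The part of follicular cells in the values of the receptors was not tested.

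The 7 T cell and Treg genes read as a check, among them Foxp3 at 111.6 to 139.8 FPKM and Cd3g as the most abundant, were high in every library and none passed. Foxp3, Cd3g, Cd4, Cd3d and Il2ra lay below both CTRL libraries in each KO library, Ikzf2 lay above and Cd3e overlapped. The groups were apart, in either direction, for 64.5% of all genes tested. The median log2 fold change of the 7 was -0.10, beside -0.02 over all genes tested. The drop was largest for Il2ra (-0.35 on the log2 scale, adjusted p = 0.138). All but Cd3g stood outside the naming rule and were named after their values were seen. At an unadjusted p under 0.05, 1 of the 7 was higher and 2 were lower, beside 1855 higher and 2099 lower of the 11399 genes tested. Of B cell markers 5 of 8 were tested and none passed, with a summed FPKM of 27.2 and 22.4 in CTRL 1 and CTRL 2 and 42.9 and 25.2 in KO 1 and KO 2, led by Cd79b. Of CD8 T and NK cell markers 4 of 8 were tested and none passed, with sums of 17.2 to 18.4 FPKM, led by Cd8b1, while Cd8a stayed below 1 FPKM. Erythroid markers, led by Hba-a2, summed to 22.7, 4.16, 38.5 and 11.4 FPKM in CTRL 1, CTRL 2, KO 1 and KO 2. Btla is also made by B cells, and the part of those cells in its values was not tested. Setd2, the targeted gene, was at 23.4 and 25.3 FPKM in CTRL, against 21.3 and 19.5 FPKM in KO, lower in both KO libraries without passing the threshold (log2 fold change -0.24, adjusted p = 0.0970). Its FPKM covers the whole gene and not the floxed exons alone, so it checks the labels only in part. Libraries held at least 29988267 to 32686764 reads, and 19100 genes were above 0 in CTRL 1 beside 15913 to 16410 in the other libraries. Over all genes tested 581 were higher and 530 lower.

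With any 1 of the 4 libraries left out, none of the receptors passed, and no more than 1 gene passed in either direction over the whole table. The fold changes of the called receptors kept their direction. Icos ran from 0.54 to 0.72 on the log2 scale (adjusted p 0.104 to 0.14), Btla from -0.34 to -0.27 (adjusted p 0.125 to 0.159) and Cd96 from -0.31 to -0.26 (adjusted p 0.116 to 0.153). The 20 genes of the surrounding lists that passed also fell short in each of these fits. Btla and Cd96 also missed the threshold in a fit with no variance trend (adjusted p 0.0642 and 0.0681), Cd96 with median-ratio scaling (0.0547), and Icos, Btla and Cd96 with every gene above 0 tested (0.086, 0.0876 and 0.0876).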

How the data were processed

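Splenic Treg cells (about 1000000 per library, 2 mice pooled) were sequenced as 150 bp read pairs after oligo(dT) enrichment. Per the study's methods and the submitters' processing notes, the authors mapped reads with HISAT2 2.2.1 to mm10 (GRCm38), counted them with featureCounts 2.0.1 and compared groups with edgeR 3.34.0. The deposited values were FPKM, made by the authors. The gene length, annotation version, strand setting and treatment of multi-mapped reads are not given in the sources used here. The table labels its control columns WT1 and WT2, which were taken to be CTRL 1 and CTRL 2.

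KO and CTRL were compared with limma 3.58.1 (R 4.3.3; lmFit and eBayes with an intensity trend) on log2(FPKM + 1), two-sided, over genes reaching 1 FPKM in 2 or more libraries, with p adjusted by Benjamini-Hochberg over all 11399 genes. This scale understates changes of weakly expressed genes such as Havcr2. FPKM are not counts, so edgeR was not run here. Precision was limited by 2 libraries per group. Whole-number ratios of FPKM between libraries gave a lower bound on the reads of each gene for 19887 of 19888 genes above 0 (99.995%, within 0.002 of a read), and limma-voom was run on those reads as an alternative. On simulated data with 200 genes changed by 1 on the log2 scale, the fit recovered 97.7% of them and 11.7% of its calls were false. That share of false calls was larger than the threshold on adjusted p is meant to allow. Smaller changes were not simulated, so the calls of Icos, Btla and Cd96 were not checked in this way. The simulation gave every gene the same relative spread beyond that of read sampling, whereas in the data the spread differed between genes. It also changed fewer genes than were called here, so its shares need not hold for the real comparison. Of the genes, 50 identifiers were listed more than once. Positions, exons and coding bases came from GENCODE vM21 on GRCm38.

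The receptors and the gene lists were chosen with earlier results of these data known. Named genes were the receptors, Setd2, the genes of each list past the threshold, the most abundant gene of each list, and the 2 nearest protein-coding genes on each side of the Cd28, Ctla4 and Icos cluster. Tnfrsf14, S100a8 and Cd8a were also named outside this rule, as were Gm37039 and Rpl18-ps1, which overlap receptor genes. Other exceptions are stated where they occur. A gene of the resting T cell list is not reported here and remains in the counts. Shared replicate numbers of the libraries were not taken as pairs.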

Additional observations from a re-analysis of the deposited data

How the results depend on the processing

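The 10 other settings changed the pseudocount, the filter, the scaling or the fit, and the directions of Icos, Btla, Cd96, Tigit, Havcr2, Pdcd1, Lag3, Cd28 and Ctla4 held in all of them that tested the gene. Over all genes, 315 were higher and 364 lower without a variance trend, 968 higher and 805 lower with the replicate block, 867 higher and 1024 lower by limma-voom on recovered reads, and 0 by limma in either direction with every gene above 0 tested, where 4463 had an unadjusted p under 0.05. Higher against lower calls were 658 and 475 with median-ratio scaling and 570 and 647 with the same sum in each library. Of the receptors, 2 were higher (Icos and Tigit) with a mean FPKM above 5, median-ratio scaling, robust eBayes and limma-voom, and 3 (with Havcr2, adjusted p = 0.0328) with the replicate block. The number lower was 1 with median-ratio scaling and 0 with no variance trend, and both numbers were 0 with every gene above 0 tested. With the replicate block, 2 of the other coinhibitory receptors were higher and 1 lower, and 8 of the effector Treg genes were higher and 1 lower. The block rests on shared numbers only. Deviations of same-numbered libraries correlated at Pearson 0.342 and Spearman 0.0553 over 11399 genes, so it is no established pairing. Values near 0 changed sign: Cd226 was -0.008 with equal sums, -0.002 by quantile normalization and 0 by limma-voom, Cd5 was 0 with median-ratio scaling, and Arf1 (-0.002) and Lck (-0.013) turned under quantile normalization. With 1 library left out, where the lone library is assumed to vary like the other group, 0 to 1 genes were higher, 0 to 1 lower and 0 receptors passed in either direction, with 2681 to 3044 genes at an unadjusted p under 0.05. Across those fits Cd28 ran from -0.006 to 0.28, Ctla4 from -0.027 to 0.27, Lag3 from -0.055 to 0.34 and Cd226 from -0.052 to 0.063. Cd5 ran from -0.093 to 0.056, Cd8b1 from -0.065 to 0.33 and Lyz2 from -0.584 to 0.75. The difference in the log2 ratio of Ctla4 to Cd28 ran from -0.038 to 0.008. That ratio was planned, and leaving out libraries for it was added after seeing the data. Except where the construction shows it (fewer libraries, more genes tested), the cause was not tested. With 2 libraries per group, differences of weakly expressed genes such as Havcr2 are limited by depth and spread together.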
